A study of Mus musculus with 8 samples.

Results

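Amino acid transporters of 7 Slc families (Slc1, Slc3, Slc6, Slc7, Slc36, Slc38 and Slc43) were followed in tumour cells of a mouse model of basal cell carcinoma. A gene was a member if its symbol begins with Slc1a, Slc3a, Slc6a, Slc7a, Slc36a, Slc38a or Slc43a followed by a number, and if a probe set of the array carries that symbol and no other. Where a gene had several such probe sets, the one with the highest mean over all arrays stood for it. This gave 58 genes of the 17097 with a probe set of their own, 2 of them transcripts from the opposite strand of a transporter gene (Slc36a1os and Slc6a19os). Slc1a4, Slc6a11, Slc6a16, Slc36a4, Slc38a8 and Slc38a11 were not analysed here. A further 4 probe sets read both Slc3a1 and Prepl and were left out.

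All 8 arrays came from back skin of K14-CreER/Ptch1cKO mice. In these mice a drug-inducible Cre driven by the keratin 14 promoter of basal keratinocytes deletes Ptch1, the receptor that restrains Hedgehog signalling, so untreated and treated animals carry the same deletion. Tumour cells were separated from the epidermis and sorted alive by a GFP reporter at the Lgr5 locus and an antibody to Lrig1, both markers of hair follicle stem cells. The 4 groups were Lgr5+Lrig1+ and Lgr5-Lrig1+ cells (the latter spelled Lrg5- in the labels) from Untreated mice, and the same populations from Vismodegib-treated mice. Vismodegib blocks Smoothened, the step of the Hedgehog pathway below Ptch1. Each group held 2 mice, and both populations were taken from each of the 4 mice. Neither the drug's dose and duration nor the age of the mice is stated by the labels.

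Each value is the log2 signal of a probe set on a one-colour array, normalised by the submitters, so a difference of 1 is a factor of 2. Array medians lay between 6.13 and 6.20, and any pair of arrays correlated at 0.946 or higher. Lgr5 read 4.83 to 8.52 in the Lgr5-negative arrays and 9.44 to 11.001 in the Lgr5-positive arrays, and Gli1, a target of the Hedgehog pathway, read 8.75 to 10.13 in untreated cells and 6.37 to 6.56 after vismodegib. Ptch1, the deleted gene and itself a Hedgehog target, read 10.56 to 11.91 in untreated and 7.72 to 8.78 in treated cells; whether its probe set lies in the deleted part is not known here, so it does not check the deletion. The mean of 9 markers of keratinocytes and hair follicle lay between 10.91 and 11.39 in all arrays, and none of them was below the limit for dim genes. Single ones of them did change. Krt15 was higher after the drug in Lgr5-negative cells (2.15) and in untreated Lgr5-positive cells (1.65). Lgr6 (1.49) and Sox9 (0.80) were higher and Cdh1 (-0.65) was lower in untreated Lgr5-positive cells, and after the drug these 3 gave -0.89, -0.73 and 0.56 there (all past an adjusted p of 0.05, limma). Markers of another cell type moved with the groups. The mean of 20 genes that mark macrophages, dendritic cells and Langerhans cells was 6.83 and 7.18 in untreated Lgr5-negative cells, 5.95 and 5.62 in untreated Lgr5-positive cells, 7.76 and 7.70 in treated Lgr5-negative cells, and 8.68 and 8.25 in treated Lgr5-positive cells. The part of such cells in the results below was not tested. In sorted bulk samples fewer cells of a type and less RNA per cell cannot be told apart.

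Cells take up amino acids through proteins of many families, and the families differ in what drives them. Members of Slc1, Slc6 and Slc38 are driven by the sodium gradient. Slc36 carriers are driven by protons, and Slc43 carriers let large neutral amino acids pass down their gradient. Most Slc7 proteins are exchangers that reach the plasma membrane only when bound to a heavy subunit, Slc3a2 (CD98) or Slc3a1, while Slc7a1, Slc7a2 and Slc7a3 carry arginine and lysine without one. Basal keratinocytes use these carriers to feed protein synthesis and the mTORC1 pathway, which responds to leucine, arginine and glutamine.

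Of the 58 genes, 46 were tested, having a signal of more than 4.85 in 2 or more arrays, the level under which 25% of all values lie. The other 12 were Slc1a3, Slc36a1os, Slc38a5, Slc6a15, Slc6a18, Slc6a19, Slc7a3, Slc7a9, Slc7a10, Slc7a11, Slc7a12 and Slc7a13, whose values lay between 3.60 and 5.13. Slc7a11, the cystine-glutamate exchanger, belongs to this dim set. It read 4.38 and 5.13 in untreated Lgr5-negative cells, 4.06 and 4.08 in untreated Lgr5-positive cells, 4.23 and 4.26 in treated Lgr5-negative cells, and 4.45 and 4.19 in treated Lgr5-positive cells. Only 1 of its 8 values was above the limit, so no change of this gene could be read. Among the 46 tested genes, 21 had a range over the 8 arrays below 0.5 and 18 had a range of 1 or more. Slc7a8 passed the limit only through the untreated Lgr5-positive arrays, so it had to differ. It is included in the counts below, which would be 10 in place of 11 without it, and its tests support nothing.

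In Lgr5-positive cells 11 of the 46 tested transporter genes passed an adjusted p of 0.05 between vismodegib-treated and untreated mice (limma, Benjamini-Hochberg over all 14403 genes tested). Of all genes tested 10.9% passed in this comparison. There were 7 transporter genes lower after the drug (4.51% of all genes) and 4 higher (6.37% of all genes). In Lgr5-negative cells 4 of the 46 passed, against 3.32% of all genes. All 4 were lower (2.06% of all genes) and 0 were higher (1.26% of all genes), while at an unadjusted p under 0.05 the comparison held for 12 of the 46 and for 18.7% of all genes. Without treated Lgr5-positive mouse 1 the count in Lgr5-positive cells was 4, without mouse 2 of that group or of untreated Lgr5-positive cells it was 6, and without untreated Lgr5-positive mouse 1 it was 7. In Lgr5-negative cells the count was 1 without either untreated Lgr5-negative mouse and 2 without treated Lgr5-negative mouse 2. Each of these settings leaves 1 mouse in a group, and fewer of all genes passed in each of them as well. The median difference over the 46 genes was -0.06 in Lgr5-positive cells and 0.01 in Lgr5-negative cells, beside -0.01 and 0.00 over all genes. The middle of the family lay near zero in both, and the changes that passed lay in single carriers. Slc7a2, Slc38a4 and Slc6a6 were lower after the drug in both populations, which were measured on different arrays of the same mice. They are 3 of the 11 genes that passed in Lgr5-positive cells and 3 of the 4 in Lgr5-negative cells.

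**Figure D1:**
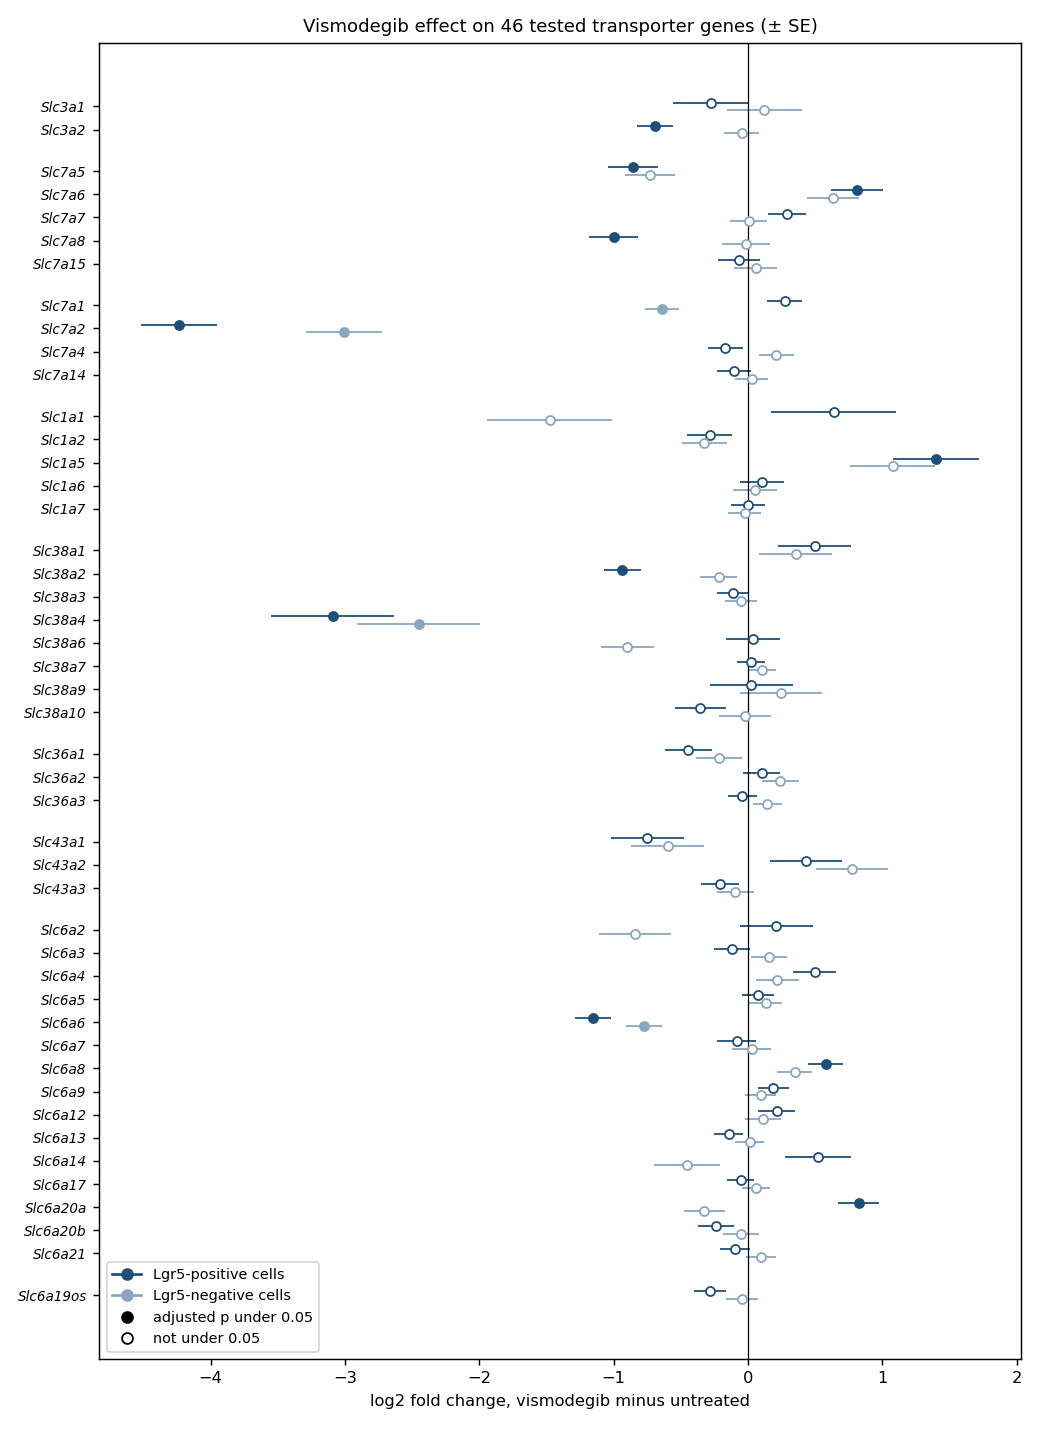
Difference between vismodegib and untreated mice (log2, x axis, ± SE) for each of the 46 tested transporter genes, grouped by role, in Lgr5-positive (dark) and Lgr5-negative (light) cells. Filled points have a limma adjusted p under 0.05. Slc7a2 at -4.23 and -3.01 and Slc38a4 at -3.09 and -2.45 lie farthest left, and most other genes lie within 1 of the zero line.

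Between the populations of untreated mice 11 of the 46 genes passed, 7 higher and 4 lower in Lgr5-positive cells. The share over all genes was 17.1%, with 6.21% higher and 10.9% lower. This comparison shares its untreated arrays with both drug comparisons, so the lists are not separate evidence, and the values of each comparison are given side by side. Leaving out 1 array mattered for some of these calls, and in the settings of this kind named here fewer of all genes passed too. With untreated Lgr5-negative mouse 2 left out 4 transporter genes passed, and with untreated Lgr5-negative mouse 1 left out 8 passed. After vismodegib 2 of the 46 genes still differed between the populations, against 0.472% of all genes. Slc43a1 was higher in Lgr5-positive cells (0.34% of all genes were) and Slc6a20a was lower (0.132% of all genes were), and with treated Lgr5-negative mouse 1 or treated Lgr5-positive mouse 2 left out 0 passed. The difference between the drug's effects in the 2 populations passed for 0 of the 46 genes by limma, while 1.4% of all genes passed, 0.993% with a larger value in Lgr5-positive cells and 0.41% with a smaller one. At an unadjusted p under 0.05 it held for 10 of the 46 and for 17.7% of all genes. With the mouse as a block 2 passed, Slc6a20a and Slc7a2, among 300 of all 14403 genes. Those nearest the threshold were Slc6a20a (1.15), Slc7a1 (0.91), Slc7a8 (-0.99), Slc38a2 (-0.72) and Slc3a2 (-0.64).

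**Figure D2:**
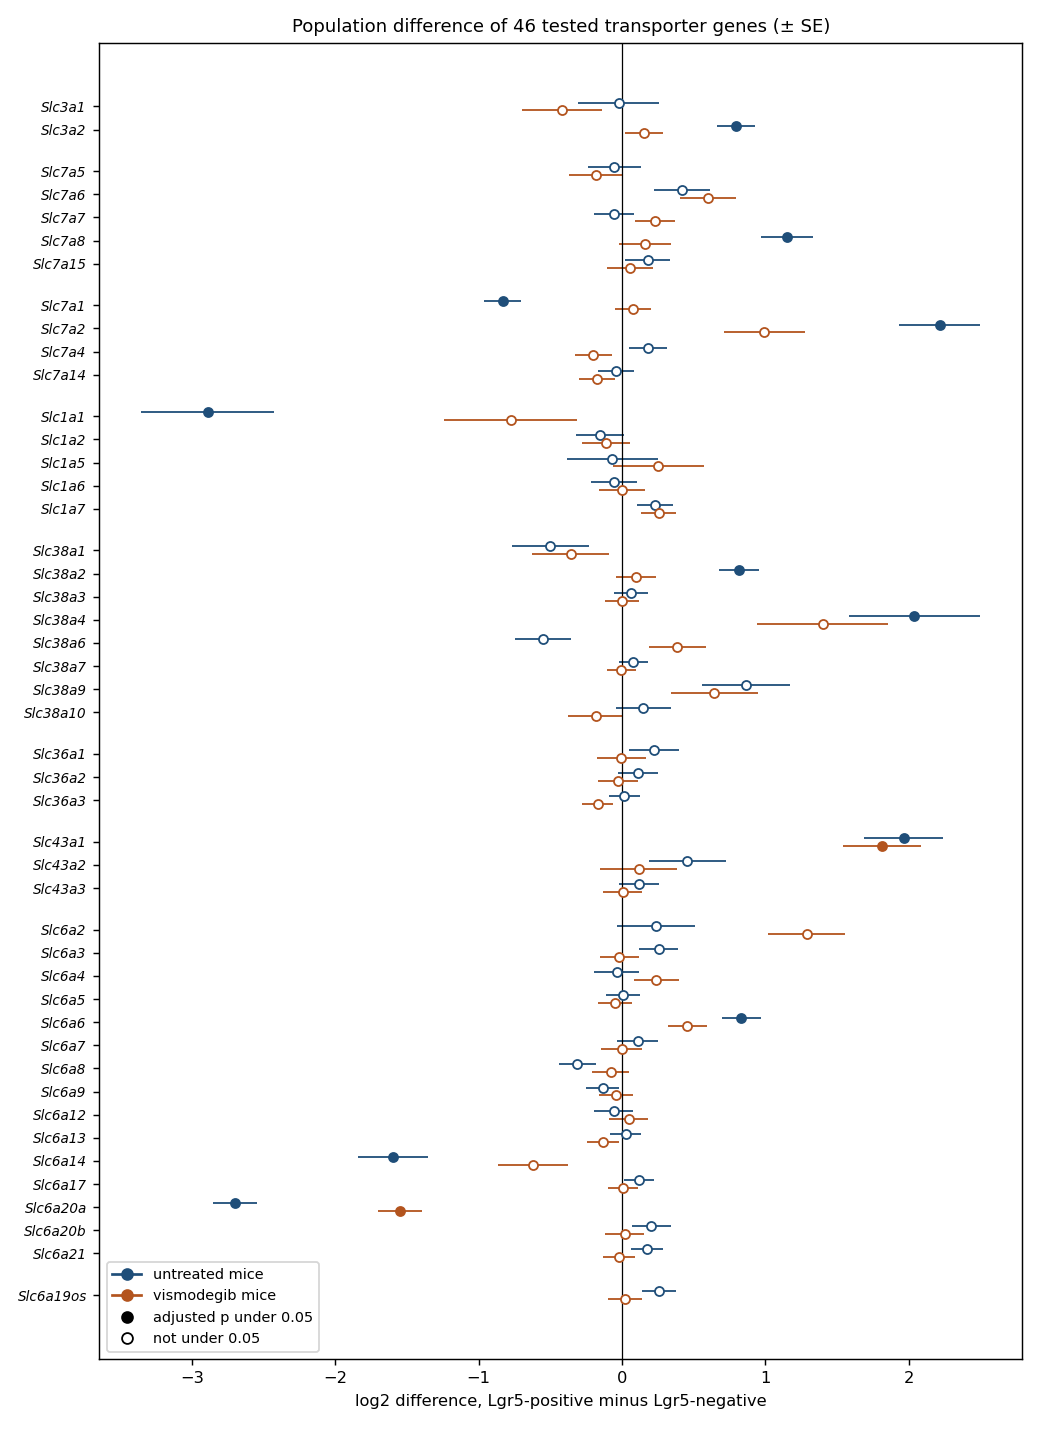
Difference between Lgr5-positive and Lgr5-negative cells (log2, x axis, ± SE) for each of the 46 tested transporter genes in untreated (blue) and vismodegib-treated (orange) mice. Filled points have a limma adjusted p under 0.05. Slc6a20a at -2.70 and -1.55 and Slc43a1 at 1.97 and 1.81 are filled in both treatments, and Slc7a2, Slc38a4 and Slc1a1 are filled in untreated mice only.

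The start regions of Slc3a2, Slc38a2 and Slc38a4, which fell in Lgr5-positive cells, and of Slc7a11 are given because transcription of several amino acid transporters is known to respond to amino acid shortage through the C/EBP-ATF response element, TGATGNAA. RefSeq (GRCm38.p6) start regions were at hand for 41 of the 58 genes, with 62 starts. Slc7a2, Slc6a6 and Slc7a5 are not among the 41. The 250 bases before each start were searched on both strands. The element was found in 4 of the 62 start regions (6.45%), belonging to Slc7a11, Slc7a7 and Slc6a21, and in 3.45% of all 32851 start regions. The GLI binding sequence TGGGTGGTC was in 0 of the 62 and in 0.225% of all. In the lines below capitals mark the response element, which lies 66 and 47 bases before the start of Slc7a11 and is not among these 250 letters of the other 3 genes.
Slc3a2, chr19:8713898-8714147, minus strand: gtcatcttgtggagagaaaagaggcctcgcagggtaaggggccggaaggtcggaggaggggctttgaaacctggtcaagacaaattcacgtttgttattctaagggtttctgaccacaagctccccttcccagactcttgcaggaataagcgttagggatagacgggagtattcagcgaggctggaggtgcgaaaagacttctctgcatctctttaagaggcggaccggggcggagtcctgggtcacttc
Slc38a2, chr15:96699729-96699978, minus strand: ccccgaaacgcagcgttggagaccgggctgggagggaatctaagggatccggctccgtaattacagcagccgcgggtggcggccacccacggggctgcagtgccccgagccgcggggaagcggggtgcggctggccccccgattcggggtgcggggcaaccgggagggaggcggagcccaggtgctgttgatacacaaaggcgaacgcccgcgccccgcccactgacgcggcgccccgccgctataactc
Slc38a4, chr15:97055957-97056206, minus strand: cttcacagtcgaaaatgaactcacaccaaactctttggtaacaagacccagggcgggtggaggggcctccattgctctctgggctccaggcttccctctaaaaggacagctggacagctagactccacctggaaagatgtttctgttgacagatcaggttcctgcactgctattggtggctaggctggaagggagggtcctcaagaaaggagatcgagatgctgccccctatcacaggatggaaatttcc
Slc7a11, chr3:50443614-50443863, minus strand: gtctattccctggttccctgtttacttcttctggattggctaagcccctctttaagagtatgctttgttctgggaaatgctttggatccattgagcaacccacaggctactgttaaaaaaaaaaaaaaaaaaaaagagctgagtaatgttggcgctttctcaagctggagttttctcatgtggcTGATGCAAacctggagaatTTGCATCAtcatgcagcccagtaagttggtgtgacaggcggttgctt

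The heavy subunit Slc3a2 was highest in untreated Lgr5-positive cells. Its signal (probe set 1425364_PM_a_at) was 11.18 and 11.44 there, 10.42 and 10.61 in untreated Lgr5-negative cells, 10.45 and 10.48 in treated Lgr5-negative cells, and 10.61 and 10.63 in treated Lgr5-positive cells. Both untreated Lgr5-positive arrays were above the other 6, and the treated Lgr5-positive arrays lay at or near the Lgr5-negative level. In untreated mice Slc3a2 was 1.74-fold higher in Lgr5-positive cells (log2 difference 0.80 ± 0.13 SE, adjusted p = 0.00795). After the drug it was 1.62-fold lower in Lgr5-positive cells (-0.69 ± 0.13, adjusted p = 0.0166), and the value in Lgr5-negative cells was -0.05. The difference between the effects was -0.64 ± 0.19 SE (adjusted p = 0.139). The population result did not pass without untreated Lgr5-negative mouse 1 (adjusted p = 0.0585), nor the drug result without treated Lgr5-positive mouse 1 or 2 or untreated Lgr5-positive mouse 2 (adjusted p up to 0.101). The second heavy subunit, Slc3a1, which is known for cystine and dibasic amino acid uptake in kidney and gut, spanned 5.63 to 6.55 and passed in no comparison.

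Of the light subunits 5 were tested. Slc7a5 (LAT1), the main importer of leucine and other large neutral amino acids, read 9.31 and 9.50 in untreated and 8.70 and 8.40 in treated Lgr5-positive cells. It fell 1.81-fold (log2 difference -0.86 ± 0.19 SE, adjusted p = 0.027). In Lgr5-negative cells it read 9.24 and 9.68 untreated and 8.83 and 8.63 treated, a difference of -0.73 that did not pass (adjusted p = 0.0859). The treated arrays were below the untreated ones in both populations, and the difference between the untreated populations was -0.05 and did not pass. The call in Lgr5-positive cells was lost without any one of the 4 Lgr5-positive arrays (adjusted p up to 0.153).

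Slc7a6 (y+LAT2), which exchanges arginine for glutamine and other neutral amino acids, moved the other way. It read 9.46 and 8.95 in untreated and 10.07 and 9.97 in treated Lgr5-positive cells, and it rose 1.76-fold (log2 difference 0.81 ± 0.19 SE, adjusted p = 0.0376). In Lgr5-negative cells the signal was 8.86 and 8.71 untreated and 9.24 and 9.59 treated (0.63, adjusted p = 0.135). The treated arrays were above the untreated ones in each population. Its second probe set (1433467_PM_at) gave 1.40 (adjusted p = 0.0027) and 1.03 (adjusted p = 0.0255). The call on the first probe set passed under 8 of 16 alternative settings. It was lost under cyclic loess, in a fit to the 4 arrays compared, and without either untreated Lgr5-negative array, either treated Lgr5-positive array or untreated Lgr5-positive mouse 2 (adjusted p up to 0.185). Between the populations Slc7a6 differed by 0.42 untreated (adjusted p = 0.183) and 0.60 treated (adjusted p = 0.281), which did not pass.

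Slc7a8 (LAT2), another carrier of neutral amino acids, was below the limit for dim genes except in untreated Lgr5-positive cells. It read 5.53 and 4.96 there and 4.06 to 4.29 in the other 6 arrays. The fitted difference was 1.15 between the untreated populations and -1.0 for the drug in Lgr5-positive cells. Since the level was below the limit in 3 groups and the gene was tested only through the fourth, these are given as a description, and with the dim values set to the limit untreated Lgr5-positive cells were at least 1.31-fold higher. Slc7a7 (y+LAT1) and Slc7a15 passed in no comparison, with ranges over the arrays of 0.39 and 0.48.

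**Figure D3:**
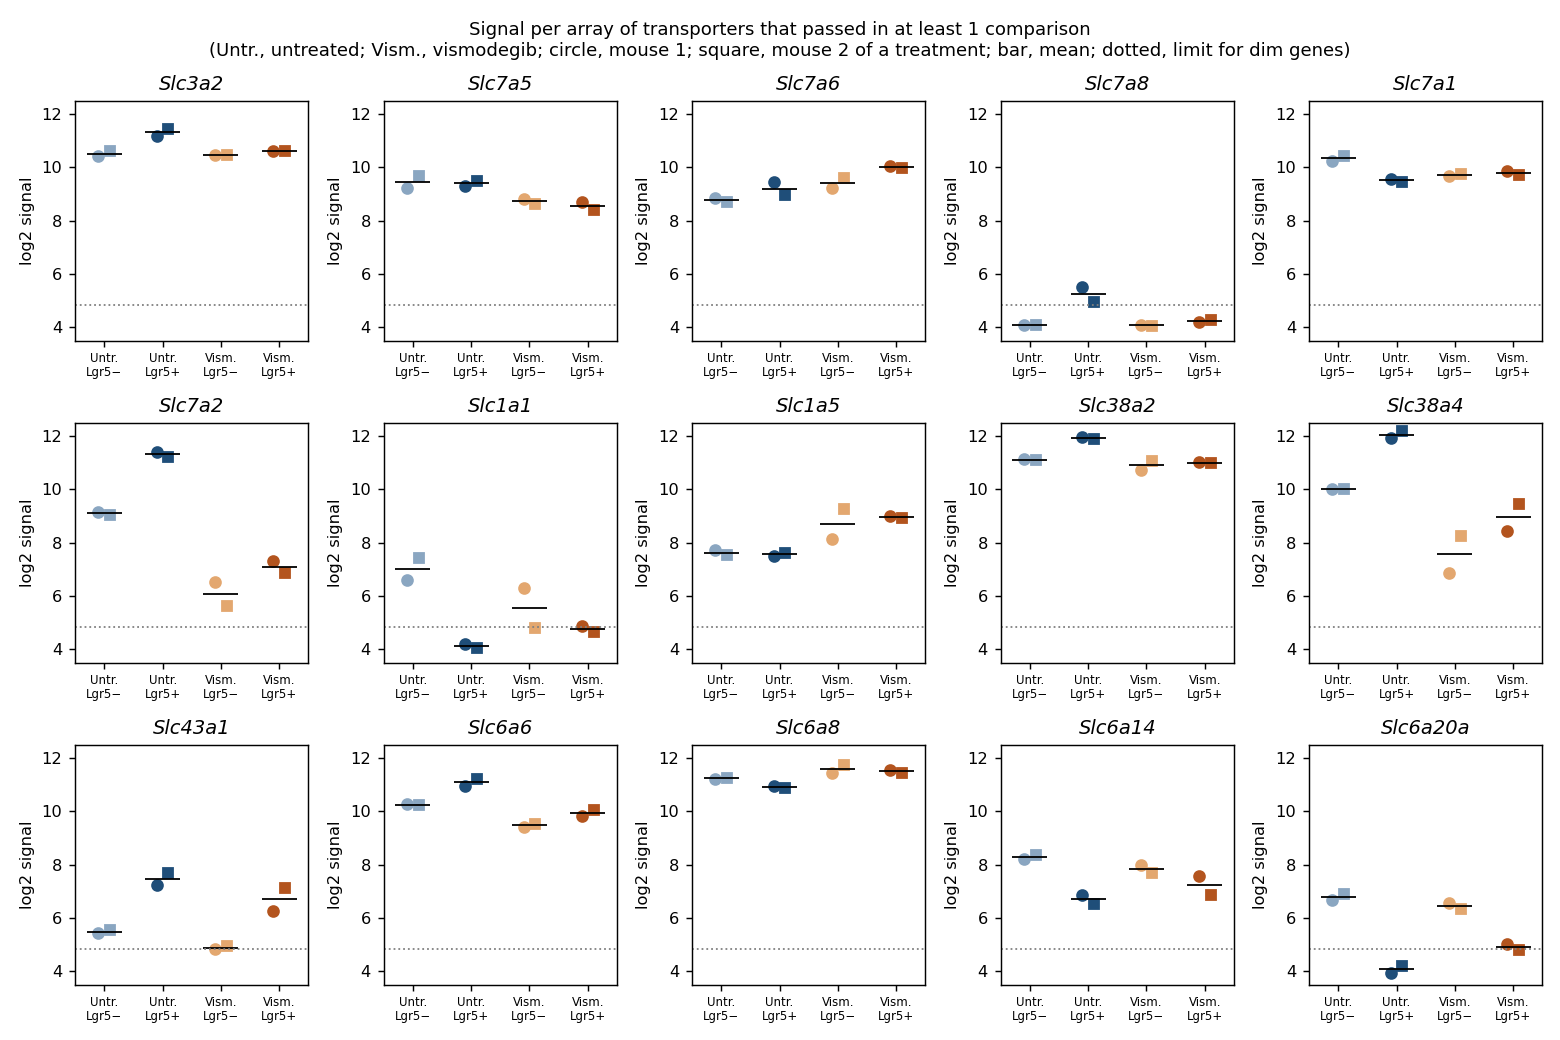
Signal of each array (log2, y axis) for the 15 transporter genes that passed in at least 1 comparison. Circles are mouse 1 and squares mouse 2 of a treatment, black bars are group means, and the dotted line is the limit of 4.85 for dim genes. Slc7a2 and Slc38a4 peak in untreated Lgr5-positive cells and lie lower in both treated groups.

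Among the cationic amino acid transporters Slc7a2, which brings arginine and lysine into the cell, had the largest range of all tested transporter genes, 5.77. Its signal (1436555_PM_at) was 9.14 and 9.06 in untreated Lgr5-negative cells and 11.41 and 11.22 in untreated Lgr5-positive cells. It was 6.54 and 5.64 in treated Lgr5-negative cells and 7.31 and 6.86 in treated Lgr5-positive cells. All 4 untreated arrays were above all 4 treated arrays, and in each mouse the Lgr5-positive cells were above the Lgr5-negative cells. The drug difference was -4.23 ± 0.28 SE in Lgr5-positive cells, an 18.8-fold fall (adjusted p = 0.000303), and -3.01 ± 0.28 SE in Lgr5-negative cells, an 8.04-fold fall (adjusted p = 0.00309). In untreated mice Slc7a2 was 4.65-fold higher in Lgr5-positive cells (2.22 ± 0.28 SE, adjusted p = 0.00309), and after the drug the difference was 0.99 and did not pass (adjusted p = 0.227). All 4 probe sets of the gene passed in these 3 comparisons, from -4.98 to -4.21, from -3.31 to -2.52 and from 2.22 to 2.43. The calls passed under all 16 alternative settings, leaving out each array included. The difference between the effects in the 2 populations was -1.22 ± 0.40 SE and did not pass (adjusted p = 0.179), though it did with the mouse as a block.

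Slc7a1, the widely expressed cationic transporter, had another order. It read 10.24 and 10.45 in untreated Lgr5-negative cells and 9.57 and 9.46 in untreated Lgr5-positive cells, then 9.67 and 9.75 in treated Lgr5-negative cells and 9.87 and 9.70 in treated Lgr5-positive cells. The untreated Lgr5-negative arrays stood above the other 6. In untreated mice it was 1.78-fold lower in Lgr5-positive cells (-0.83 ± 0.13 SE, adjusted p = 0.00615), and all 3 of its probe sets passed there. This call was lost without untreated Lgr5-negative mouse 2 (adjusted p = 0.0631). In Lgr5-negative cells it fell by 0.64 on the log2 scale (± 0.13 SE, adjusted p = 0.0449), a call that passed under 4 of 16 alternative settings and was lost without any one of the 8 arrays (adjusted p up to 0.307). The drug difference in Lgr5-positive cells was 0.27 and did not pass. The difference between the effects was 0.91 ± 0.18 SE (adjusted p = 0.062, and 0.049 with the mouse as a random block). Slc7a4 and Slc7a14 passed in no comparison.

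In the Slc1 family Slc1a5 (ASCT2), a sodium-dependent exchanger of glutamine, was higher after the drug. It read 7.51 and 7.61 in untreated and 8.98 and 8.94 in treated Lgr5-positive cells, and it rose 2.64-fold (log2 difference 1.40 ± 0.32 SE, adjusted p = 0.0317). In Lgr5-negative cells it read 7.71 and 7.54 untreated and 8.13 and 9.28 treated (1.08, adjusted p = 0.123). The treated Lgr5-negative mice differed from each other by more than 1, and without mouse 1 the value was 1.65 (adjusted p = 0.00873). The second probe set of Slc1a5 (1416629_PM_at) gave 1.01 in Lgr5-positive cells (adjusted p = 0.00391). It also read lower in untreated Lgr5-positive than Lgr5-negative cells, by -0.75 (adjusted p = 0.011), where the first gave -0.07 and did not pass. The call in Lgr5-positive cells was lost without either array of the untreated groups or of treated Lgr5-positive cells (adjusted p up to 0.153).

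Slc1a1 (EAAC1), a transporter of glutamate and cysteine, was detected mainly in Lgr5-negative cells. It read 6.60 and 7.44 in untreated Lgr5-negative cells and 4.19 and 4.07 in untreated Lgr5-positive cells. After the drug it read 6.31 and 4.78 in Lgr5-negative and 4.88 and 4.66 in Lgr5-positive cells. In untreated mice it was lower in Lgr5-positive cells (fitted difference -2.89 ± 0.46 SE, adjusted p = 0.00728). Both values there were below the limit for dim genes, and with them set to the limit Slc1a1 was at least 4.49-fold lower. The call was lost without untreated Lgr5-negative mouse 2 (adjusted p = 0.0654). The second probe set of Slc1a1 gave -0.71 (adjusted p = 0.0255). Treated Lgr5-negative mouse 1 was near the untreated level of this gene and mouse 2 was not, and the drug difference of -1.48 did not pass (adjusted p = 0.144), but without mouse 1 it was -2.24 (adjusted p = 0.0286). Slc1a2, Slc1a6 and Slc1a7, glutamate transporters best known from brain and retina, passed in no comparison.

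Of the Slc38 family 8 genes were tested. Slc38a4, a sodium-coupled carrier of small neutral amino acids, read 9.99995 and 10.0237 in untreated Lgr5-negative cells and 11.92 and 12.19 in untreated Lgr5-positive cells. After the drug it read 6.87 and 8.25 in Lgr5-negative and 8.46 and 9.47 in Lgr5-positive cells. The 4 treated arrays were all below the 4 untreated arrays, and the 2 treated mice lay more than 1 apart in both populations, mouse 2 above mouse 1. The fall was 8.52-fold in Lgr5-positive cells (-3.09 ± 0.46 SE, adjusted p = 0.00615) and 5.47-fold in Lgr5-negative cells (-2.45 ± 0.46 SE, adjusted p = 0.0376). The first passed under all 16 alternative settings. The second passed under 9, and it was lost without any one untreated array or treated Lgr5-negative mouse 1 (adjusted p up to 0.229). Its other probe set (1428111_PM_at) gave -3.27 and -3.32, both past the threshold.

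Slc38a4 was also 4.11-fold higher in Lgr5-positive than Lgr5-negative cells of untreated mice (2.04 ± 0.46 SE, adjusted p = 0.0235), a call lost without any one of the 4 untreated arrays (adjusted p up to 0.129). In treated mice the difference was 1.40 (adjusted p = 0.288), and with the mouse as a block it passed (adjusted p = 0.0227). Within the mice the difference was 1.92 and 2.16 untreated and 1.58 and 1.22 treated, so the Lgr5-positive cells had the higher signal of Slc38a4 in all 4 animals. The start region of this gene is printed above with those of Slc38a2 and Slc3a2.

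Slc38a2 (SNAT2), the carrier of alanine and glutamine that is known to be induced when amino acids run short, followed the pattern of Slc3a2. It read 11.98 and 11.89 in untreated Lgr5-positive cells, 11.12 and 11.11 in untreated Lgr5-negative cells, 10.72 and 11.08 in treated Lgr5-negative cells, and 11.01 and 10.98 in treated Lgr5-positive cells. Only the untreated Lgr5-positive arrays stood apart. The drug difference there was -0.94 ± 0.14 SE, a 1.91-fold fall (adjusted p = 0.0063), which passed under all 16 alternative settings. In untreated mice Slc38a2 was 1.76-fold higher in Lgr5-positive cells (0.82 ± 0.14 SE, adjusted p = 0.00882), a call lost without either untreated Lgr5-negative array (adjusted p up to 0.073). In Lgr5-negative cells the drug difference of Slc38a2 was -0.22 and did not pass, and the difference between the effects was -0.72 (adjusted p = 0.124). A second probe set gave -0.76 and passed, and the third gave -0.65 and did not (adjusted p = 0.11).

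The other Slc38 members moved less. Slc38a6 was lower after the drug in Lgr5-negative cells by -0.90, just outside the threshold (adjusted p = 0.0573). Between the untreated populations Slc38a6 differed by -0.55 (adjusted p = 0.0994, and 0.0476 with the mouse as a block). Slc38a9, the lysosomal arginine sensor of mTORC1, was higher in untreated Lgr5-positive cells by 0.86 (adjusted p = 0.0958, and 0.0329 with the mouse as a block). Its values were 8.21 and 7.97 in those cells and 7.35 and 7.10 in Lgr5-negative cells, 0.86 and 0.87 apart within the mice. Its probe sets 1455360_PM_at and 1455612_PM_at were also higher in Lgr5-positive cells of both untreated mice. The probe set 1436456_PM_at read 7.61 and 6.52 in untreated Lgr5-positive and 7.09 and 6.99 in untreated Lgr5-negative cells, so its mice went opposite ways. By the probe sets that stand for them Slc38a1, Slc38a3, Slc38a7 and Slc38a10 passed in no comparison. With the mean of probe sets Slc38a1 passed between the untreated populations. Its second probe set (1454764_PM_s_at) read 5.50 and 5.00 in untreated Lgr5-positive and 6.20 and 6.55 in untreated Lgr5-negative cells. Slc38a7 had the smallest range of all tested transporter genes, 0.14. None of the 3 tested Slc36 members passed. Slc36a1, a proton-coupled carrier of the lysosome, came nearest with -0.44 after the drug in Lgr5-positive cells (adjusted p = 0.16).

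Slc43a1 (LAT3), a facilitated carrier of leucine and other large neutral amino acids, differed between the populations under both treatments. It read 5.43 and 5.55 in untreated Lgr5-negative cells, 7.23 and 7.67 in untreated Lgr5-positive cells, 4.83 and 4.95 in treated Lgr5-negative cells, and 6.27 and 7.13 in treated Lgr5-positive cells. Every Lgr5-positive array was above every Lgr5-negative array. Slc43a1 was 3.90-fold higher in Lgr5-positive cells untreated (1.97 ± 0.27 SE, adjusted p = 0.00418), under all 16 alternative settings. After vismodegib it was 3.52-fold higher (1.81 ± 0.27 SE, adjusted p = 0.0479), under 7 of 16 settings and with an adjusted p of up to 0.2, and it was lost without any array but treated Lgr5-positive mouse 1. The drug differences of -0.75 and -0.60 in Lgr5-positive and Lgr5-negative cells did not pass. Slc43a2, the related LAT4, and Slc43a3, a carrier of purine bases, passed in no comparison.

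The largest family was Slc6, with 15 genes tested. Slc6a6, the taurine transporter, read 10.27 and 10.22 in untreated Lgr5-negative cells, 10.96 and 11.20 in untreated Lgr5-positive cells, 9.42 and 9.52 in treated Lgr5-negative cells, and 9.82 and 10.04 in treated Lgr5-positive cells. The groups did not overlap, and within each treatment Lgr5-positive cells were higher. Slc6a6 fell 2.22-fold in Lgr5-positive cells (-1.15 ± 0.13 SE, adjusted p = 0.00223) and 1.71-fold in Lgr5-negative cells (-0.77 ± 0.13 SE, adjusted p = 0.03). In untreated mice Slc6a6 was 1.78-fold higher in Lgr5-positive cells (0.83 ± 0.13 SE, adjusted p = 0.00736, and 0.0686 without untreated Lgr5-negative mouse 2). After the drug the difference was 0.46 and did not pass (adjusted p = 0.24). All 4 probe sets of Slc6a6 passed in both drug comparisons. The call in Lgr5-positive cells passed under all 16 alternative settings, and that in Lgr5-negative cells was lost without any one of the 4 Lgr5-negative arrays (adjusted p up to 0.187).

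Slc6a20a, a transporter of proline and other imino acids, was higher in Lgr5-negative cells. It read 6.67 and 6.88 in untreated and 6.57 and 6.34 in treated Lgr5-negative cells, and 3.95 and 4.20 in untreated and 5.00 and 4.80 in treated Lgr5-positive cells. The Lgr5-negative arrays were all above the Lgr5-positive ones, and the lowest pair, untreated Lgr5-positive, lay below the limit for dim genes. With those set to the limit Slc6a20a was at least 3.80-fold lower in Lgr5-positive cells untreated (fitted difference -2.70 ± 0.15 SE, adjusted p = 0.000364), and it was 2.93-fold lower after the drug (-1.55 ± 0.15 SE, adjusted p = 0.0105). The drug difference was 0.82 ± 0.15 SE in Lgr5-positive cells (adjusted p = 0.0157) and -0.33 in Lgr5-negative cells. The first lies almost wholly below the limit, and with dim values set to it the difference was 0.08. The difference between the effects was 1.15 ± 0.22 SE (adjusted p = 0.0549, and 0.0337 with the mouse as a block). Within the mice the populations of Slc6a20a differed by -2.72 and -2.68 untreated and by -1.56 and -1.54 treated. The drug call was lost without untreated or treated Lgr5-positive mouse 1 (adjusted p up to 0.114). The population call in treated mice was lost without treated Lgr5-negative mouse 1 or treated Lgr5-positive mouse 2 (adjusted p up to 0.0791).

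Slc6a14, which carries nearly all neutral and cationic amino acids, read 8.23 and 8.35 in untreated Lgr5-negative and 6.87 and 6.51 in untreated Lgr5-positive cells. After the drug it read 7.97 and 7.70 in Lgr5-negative and 7.58 and 6.85 in Lgr5-positive cells. In untreated mice Slc6a14 was 3.02-fold lower in Lgr5-positive cells (-1.60 ± 0.24 SE, adjusted p = 0.00615), and its second probe set gave -2.64 (adjusted p = 0.00525). The call was lost without untreated Lgr5-negative mouse 2 (adjusted p = 0.058). In treated mice the difference was -0.62 and did not pass. The drug difference of Slc6a14 in Lgr5-positive cells was 0.52 and did not pass (adjusted p = 0.241). The Lgr5-positive arrays of Slc6a14 overlapped between treatments, since untreated mouse 1 and treated mouse 2 read nearly the same.

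Slc6a8, the creatine transporter, read 10.96 and 10.88 in untreated and 11.55 and 11.45 in treated Lgr5-positive cells. It rose 1.49-fold (0.58 ± 0.13 SE, adjusted p = 0.0311), a call that passed under 8 of 16 alternative settings and was lost under cyclic loess, in the fit to the 4 arrays alone, and without any one of 6 arrays (adjusted p up to 0.177). In Lgr5-negative cells Slc6a8 read 11.21 and 11.25 untreated and 11.43 and 11.72 treated (0.35, not past the threshold). Treated arrays of Slc6a8 were above untreated ones in both populations. Between the untreated populations Slc6a8 differed by -0.31 and did not pass (adjusted p = 0.149).

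Slc6a2, the noradrenaline transporter, differed between its probe sets. The one that stands for the gene read 7.62 and 6.99 in untreated Lgr5-negative, 7.30 and 7.79 in untreated Lgr5-positive, 6.40 and 6.53 in treated Lgr5-negative and 8.02 and 7.48 in treated Lgr5-positive cells. It gave a population difference of 1.29 in treated mice (adjusted p = 0.12). Another probe set of Slc6a2, 1460129_PM_at, singled out after its values were seen, read 7.04 and 6.66 in untreated Lgr5-negative, 6.60 and 6.49 in untreated Lgr5-positive, 5.85 and 5.94 in treated Lgr5-negative and 7.41 and 7.18 in treated Lgr5-positive cells. It was thus highest in treated Lgr5-positive and lowest in treated Lgr5-negative cells. It gave 0.75 after the drug in Lgr5-positive cells (adjusted p = 0.0251) and -0.96 in Lgr5-negative cells (adjusted p = 0.0257, over all probe sets). Its population difference in treated mice was 1.40 (adjusted p = 0.0224). The remaining Slc6 genes include the serotonin transporter Slc6a4, with 0.50 after the drug in Lgr5-positive cells (adjusted p = 0.0941), the dopamine transporter Slc6a3 and the glycine transporters Slc6a5 and Slc6a9, and none of these 4 passed in any comparison. Nor did Slc6a7, Slc6a12, Slc6a13, Slc6a17, Slc6a20b and Slc6a21, nor the opposite-strand transcript Slc6a19os (-0.28 after the drug in Lgr5-positive cells, adjusted p = 0.192). Between the untreated populations Slc6a19os differed by 0.26 (adjusted p = 0.182).

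**Figure D4:**
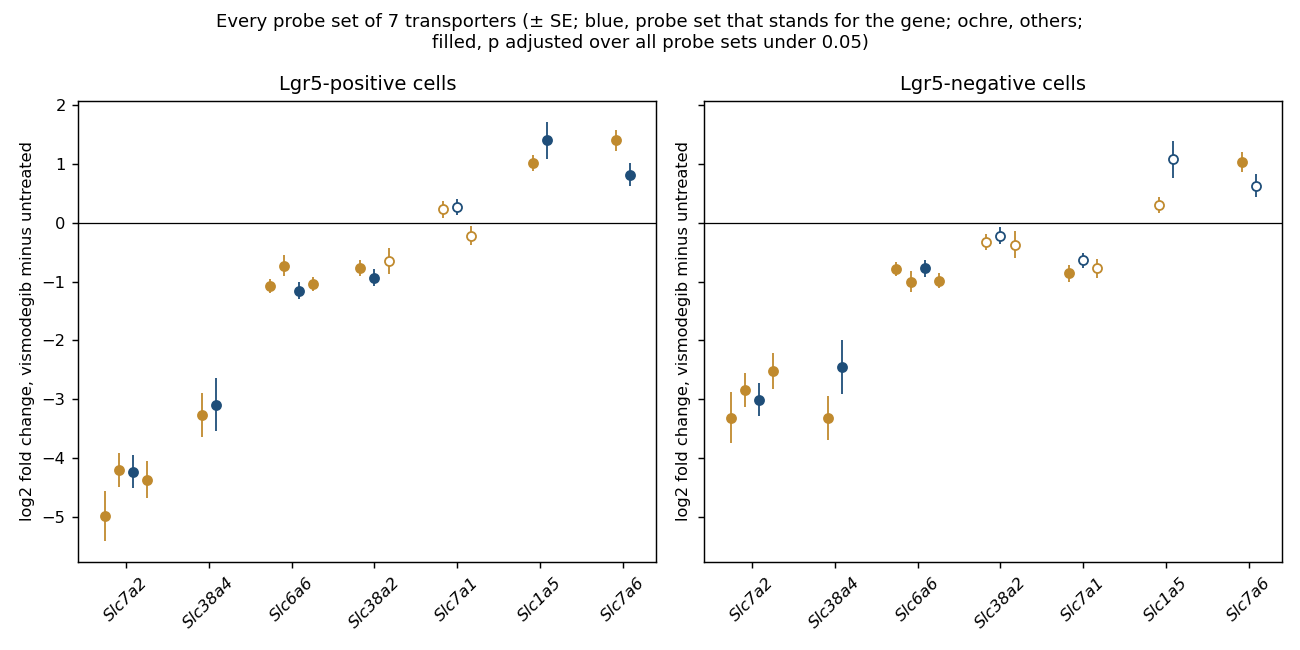
Difference between vismodegib and untreated mice (log2, y axis, ± SE) for every probe set of 7 transporter genes in Lgr5-positive (left) and Lgr5-negative (right) cells. Blue is the probe set that stands for the gene and ochre the others, and filled points have a p under 0.05 adjusted over the 23551 probe sets tested, so the blue point of Slc7a1 on the right is open at 0.0504. The probe sets of Slc7a2, Slc38a4 and Slc6a6 lie below zero in both panels.

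Genes of amino acid metabolism and sensing were counted on lists that were chosen with earlier results of these data known. Among 19 tested targets of the amino acid response, the pathway by which ATF4 raises transporter and biosynthesis genes, 3 were higher (6.21% of all genes were) and 7 lower (10.9% of all genes were) in Lgr5-positive than Lgr5-negative cells of untreated mice, with a list median of -0.46 beside 0.02 over all genes. Those higher included Ddit4 (1.04, adjusted p = 0.0327) and Nupr1 (0.97, adjusted p = 0.0169), and those lower included Vldlr (-1.04, adjusted p = 0.0348) and Stc2 (-0.86, adjusted p = 0.0466). Chac1 (-0.70), also among the 7, was above the limit for dim genes only in the untreated Lgr5-negative arrays, so it had to differ. It is included in the count, and its test supports nothing. Atf4 itself differed by 0.17 and did not pass. The shares of 6.21% and 10.9% apply to the population counts of all lists below. After the drug 2 of the 19 fell in Lgr5-positive cells, beside 4.51% of all genes lower and 6.37% higher, Ddit4, an inhibitor of mTORC1, by -1.92 ± 0.26 SE (adjusted p = 0.00394), and Nupr1 by -1.74 ± 0.20 SE (adjusted p = 0.00201). Nupr1, a stress-induced chromatin protein, also fell in Lgr5-negative cells, by -1.88 (adjusted p = 0.00473), the only gene of the 19 to pass there. Of all genes 3.32% passed for the drug in Lgr5-negative cells, a share that applies to the lists below too. Both drug calls in Lgr5-positive cells passed under all 16 alternative settings. Nupr1 in Lgr5-negative cells was lost without untreated Lgr5-negative mouse 2 (adjusted p = 0.0585), as were the untreated population calls of Ddit4, Nupr1, Vldlr and Stc2, each of which was also lost without at least 1 other untreated array (adjusted p up to 0.179).

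Aminoacyl-tRNA synthetases, which load amino acids onto tRNA, showed 9 of 16 genes lower (10.9% of all genes were) and 0 higher (6.21%) in untreated Lgr5-positive cells, with a median of -0.54. The largest differences were those of Rars (-1.19 ± 0.16 SE, adjusted p = 0.00375), Gars (-1.08, adjusted p = 0.00769), Farsb (-1.03, adjusted p = 0.00579) and Nars (-0.71, adjusted p = 0.0112). After the drug 3 of the 16 rose in Lgr5-positive cells (6.37% of all genes did), Rars by 0.90 (adjusted p = 0.0127), Farsb by 0.69 (adjusted p = 0.0311) and Wars by 0.56 (adjusted p = 0.0495), and none passed in Lgr5-negative cells. Rars read 9.23 and 9.35 in untreated Lgr5-negative, 8.16 and 8.04 in untreated Lgr5-positive, 9.39 and 8.96 in treated Lgr5-negative and 9.05 and 8.95 in treated Lgr5-positive cells. The untreated Lgr5-positive arrays were the lowest for this gene and stood apart from the other 6. The population call of Rars passed under all 16 alternative settings. Those of Gars, Farsb and Nars were lost without untreated Lgr5-negative mouse 2 (adjusted p up to 0.0838), and the drug calls of Rars, Farsb and Wars without treated Lgr5-positive mouse 2, among other arrays (adjusted p up to 0.092, 0.139 and 0.229).

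**Figure D5:**
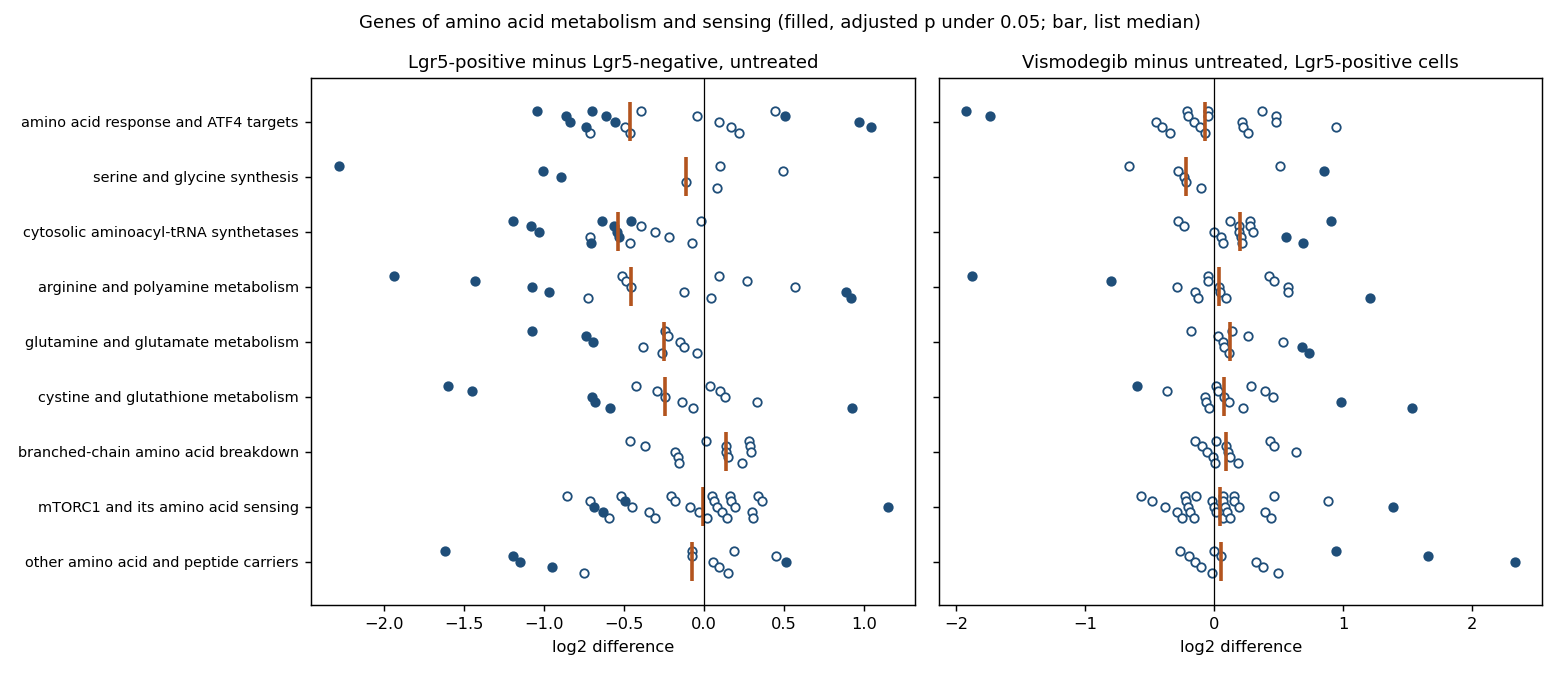
Differences (log2, x axis) of the tested genes of 9 lists of amino acid metabolism and sensing, 1 point a gene, between the populations of untreated mice (left) and between treatments in Lgr5-positive cells (right). Filled points have a limma adjusted p under 0.05 and orange bars are list medians. The medians on the left reach -0.54 for the tRNA synthetases, and those on the right lie near zero.

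In serine and glycine synthesis 3 of 7 tested genes were lower in untreated Lgr5-positive cells. Psat1, the aminotransferase of serine synthesis, read 10.817 and 10.999 in untreated Lgr5-negative, 8.43 and 8.83 in untreated Lgr5-positive, 9.70 and 9.91 in treated Lgr5-negative and 9.52 and 9.43 in treated Lgr5-positive cells. It was 4.86-fold lower in untreated Lgr5-positive cells (-2.28 ± 0.16 SE, adjusted p = 0.000544). It rose by 0.85 after the drug in Lgr5-positive cells (adjusted p = 0.0172), where it was the only gene of the 7 to pass (10.9% of all genes did). In Lgr5-negative cells Psat1 gave -1.11 (adjusted p = 0.0169) and Gcat, which breaks down threonine products to glycine, gave -1.35 (adjusted p = 0.028). Both were lower, as were 2.06% of all genes. The untreated population call of Psat1 passed under all 16 alternative settings. Its drug calls were lost without either treated Lgr5-positive array or untreated Lgr5-positive mouse 1 (adjusted p up to 0.112), and without either untreated Lgr5-negative array or treated Lgr5-negative mouse 1 (adjusted p up to 0.152). Gcat was lost in Lgr5-negative cells without any array of that population (adjusted p up to 0.196).

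Arginine and polyamine metabolism uses what Slc7a1 and Slc7a2 import. In untreated Lgr5-positive cells 2 of 15 genes were higher and 4 lower, among them Ass1, which makes arginine from citrulline (-1.94, adjusted p = 0.0222), and Odc1, the first enzyme of polyamine synthesis (-1.08, adjusted p = 0.00298). After the drug Odc1 rose by 1.20 ± 0.14 SE in Lgr5-positive cells (adjusted p = 0.00199). Sms, spermine synthase, fell by -1.88 ± 0.20 SE (adjusted p = 0.00136), and Oaz2, an inhibitor of Odc1, gave -0.80 (adjusted p = 0.0324). Sms read 10.80 and 10.47 in untreated and 8.87 and 8.64 in treated Lgr5-positive cells, so the groups were well apart. Sms and Odc1 passed under all 16 alternative settings in this comparison, and Oaz2 was lost without any one Lgr5-positive array (adjusted p up to 0.176). The population call of Ass1 was lost without untreated Lgr5-negative mouse 2 or untreated Lgr5-positive mouse 1 (adjusted p up to 0.154). In Lgr5-negative cells Sms came nearest the threshold, at -0.93 (adjusted p = 0.051), and no gene of the 15 passed.

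In glutamine and glutamate metabolism 3 of 10 genes were lower in untreated Lgr5-positive cells, Ppat (-1.07), Asns (-0.74) and Got2 (-0.69). In Lgr5-positive cells 2 rose after the drug (6.37% of all genes did), Gpt by 0.74 and Ppat by 0.68. In cystine and glutathione metabolism 1 of 15 was higher and 5 lower in untreated Lgr5-positive cells, with Gsr, glutathione reductase, at -1.45 (adjusted p = 0.00156). Chac1, 1 of the 5, had to differ, as stated above. After the drug 2 of the 15 rose in Lgr5-positive cells (6.37% of all genes did), Gsr by 1.54 (adjusted p = 0.00101) and Cbs by 0.99 (adjusted p = 0.0466). Csad fell there (-0.60, adjusted p = 0.0202), 1 of the 15, beside 4.51% of all genes. Breakdown of branched-chain amino acids, which Slc7a5 and Slc43a1 import, had 0 of 13 genes past the threshold in each of the 5 comparisons by limma, and at most 2 at an unadjusted p under 0.05. Of 28 mTORC1 genes 1 was higher in untreated Lgr5-positive cells, Sesn1 (1.15), and 3 were lower, Sec13 (-0.68), Lamtor5 (-0.63) and Seh1l (-0.49), so the list lay near or below the shares over all genes. After the drug 1 of the 28 rose in Lgr5-positive cells (6.37% of all genes did), Fnip1 by 1.38 (adjusted p = 0.0171), and 1 fell in Lgr5-negative cells (2.06% of all genes did), Sec13 by -0.55 (adjusted p = 0.0445). Among 13 other carriers 1 was higher and 4 lower in untreated Lgr5-positive cells, with Slc25a13 at -1.62 (adjusted p = 0.000772), Slc15a4 at -1.19, Slc25a12 at -1.15 and Slc15a1 at -0.95. After the drug 3 of the 13 rose in Lgr5-positive cells (6.37% of all genes did) and 2 in Lgr5-negative cells (1.26% of all genes did). In both populations 0 fell, beside 4.51% and 2.06% of all genes. The peptide transporter Slc15a1 rose by 2.33 in Lgr5-positive cells (adjusted p = 0.00198) and by 1.43 in Lgr5-negative cells (adjusted p = 0.0364), and Slc15a4, a lysosomal peptide and histidine carrier, rose by 1.65 in Lgr5-positive cells (adjusted p = 0.00299). The drug calls of Gsr, Slc15a1 and Slc15a4 in Lgr5-positive cells passed under all 16 alternative settings. Those of Ppat, Gpt and Fnip1 were lost without either treated Lgr5-positive array (adjusted p up to 0.0962, 0.149 and 0.117), and Sec13 and Slc15a1 in Lgr5-negative cells without any one Lgr5-negative array (adjusted p up to 0.272 and 0.252). The population calls of Asns and Got2 were lost without either untreated Lgr5-negative array (adjusted p up to 0.188 and 0.167).

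The genes that mark macrophages, dendritic cells and Langerhans cells changed in the same comparisons. After the drug 17 of 19 tested rose and 0 fell in Lgr5-positive cells (median 2.49), where 6.37% of all genes rose and 4.51% fell. In Lgr5-negative cells 4 rose and 0 fell (median 0.73), beside 1.26% and 2.06% of all genes. In untreated mice 8 of the 19 were lower and 0 higher in Lgr5-positive cells (median -0.84), beside 10.9% and 6.21% of all genes. In treated mice 5 were higher and 0 lower, beside 0.34% and 0.132% of all genes. The difference between the drug effects passed for 8 of the 19, all larger in Lgr5-positive cells (median 1.56). Of all genes 0.993% passed with a larger value there. No marker of that list was below the limit in all arrays. The transporter genes that rose in Lgr5-positive cells (Slc1a5, Slc7a6, Slc6a8 and Slc6a20a) thus moved in the same direction as these markers, and those that fell moved against them, and the part of the markers' cells in either was not tested. Of 10 markers of mast cells and neutrophils 5 were below the limit in all arrays (Cpa3, Mcpt4, Kit, Fcer1a and Cxcr2), and the fibroblast markers Lum, Pdgfra and Dpt were below it too. Of 4 fibroblast markers tested Col1a1 was higher in untreated Lgr5-positive cells (0.88, 6.21% of all genes were higher). Of 9 T cell markers Thy1 (-1.14) and Cd3e (-0.93) were lower there (10.9% of all genes were). Of 7 melanocyte markers 1 rose after the drug in Lgr5-positive cells, Mitf (2.14), where 6.37% of all genes rose. The median of these 7 was -0.14. Of 4 Schwann cell markers 1 was higher in untreated Lgr5-positive cells, Ngfr (0.68), where 6.21% of all genes were. The median of these 4 was 0.07. S100a8 and S100a9, which keratinocytes also express, were lower in untreated Lgr5-positive cells (-2.54 and -2.23) and lower after the drug in Lgr5-negative cells (-3.42 and -3.08). With 2 mice a group, the adjusted p-values rest on 1 variance per gene, shared by the 4 groups and drawn toward that of other genes. The spread within a group is that between its 2 mice. The main fit treats the 2 populations of a mouse as independent samples, though they come from the same animal.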

How the data were processed

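RNA of 8 sorted cell samples was amplified to cDNA and hybridised to one-colour mouse arrays. The deposited values are log2 signals per probe set, which the authors made with RMA, per the submitters' processing notes (version not stated); that they are on a log2 scale was read from their range. Of 45141 probe sets, 28898 carried 1 gene symbol in the platform annotation, and each of 17097 genes was represented by its probe set of highest mean. Genes above 4.85, the 25th percentile, in at least 2 arrays (14403) entered 1 limma fit (version 3.58.1, R 4.3.3) of 4 groups over all 8 arrays, with Benjamini-Hochberg adjustment per comparison. The script was tested on simulated data. The transporter genes and lists were chosen with earlier results of these data known. All transporter genes are named. Values in every array are given for those past an adjusted p of 0.05 and for Slc3a2, Slc7a5, Slc7a11, Slc1a5, Slc7a1 and Slc38a2, and fold changes for the 5 nearest the threshold in each comparison. Up to 4 genes past the threshold are named per list and comparison.

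Both populations of a mouse carry its number in the labels. Their deviations from the group means correlated at 0.142 in untreated and 0.211 in treated mice over 14403 genes. Alternatives were other filters, the mean of probe sets or every probe set, cyclic loess, an intensity trend, only the 4 arrays compared, mouse blocks and leaving out each array. Arrays have no read depth, and their number, 2 mice a group, limits the precision. Start regions came from a RefSeq table (GRCm38.p6).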

Additional observations from a re-analysis of the deposited data

Results flagged for a closer look

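The response to vismodegib differed between Lgr5-positive and Lgr5-negative cells for 4 genes of the metabolic lists and for 1 transporter probe set, by a limma test of the difference itself (effect in Lgr5-positive minus effect in Lgr5-negative cells, log2), which 1.4% of all genes passed. The 4 genes were 1 of 7 tested in serine and glycine synthesis and 1 of 15 in cystine and glutathione metabolism. They were also 1 of 15 in arginine and polyamine metabolism and 1 of 13 other carriers, and 0 passed in the remaining lists. The 1.4% is a share over genes, and no share over all probe sets is given. In all 5 the signed value was higher in Lgr5-positive cells. For Psat1 and the Slc6a2 probe set the change was larger in size in Lgr5-negative cells, where it was a fall. The same test gave a higher value in Lgr5-positive cells for 8 of 19 macrophage, dendritic and Langerhans cell markers. Their list median was 1.56, with Lyz2 at 5.44 and Ctss at 4.91, and their part in these results was not tested. Psat1, of serine synthesis, differed by 1.95 (adjusted p = 0.0171), with effects of 0.85 and -1.11, and the call was lost without treated Lgr5-positive mouse 1 or untreated Lgr5-negative mouse 2 (adjusted p up to 0.0956). Gsr, glutathione reductase, differed by 1.56 (adjusted p = 0.0211). Its signal was 6.45 and 6.23 in untreated Lgr5-positive cells and 7.70 to 8.02 in the other 6 arrays, and the call passed under 10 of 15 alternative settings (adjusted p up to 0.128, lost without either untreated Lgr5-negative array, either treated Lgr5-positive array or treated Lgr5-negative mouse 2). Odc1, of polyamine synthesis, differed by 1.21 (adjusted p = 0.0362, and 0.0536 with the mouse as a block). It read 7.99 and 8.17 in untreated Lgr5-positive cells and 9.07 to 9.40 elsewhere, and leaving out any array but untreated Lgr5-positive mouse 2 ended the call (adjusted p up to 0.159). Slc25a13, the mitochondrial carrier of aspartate and glutamate, differed by 1.13 (adjusted p = 0.0393), read 5.88 and 5.98 in untreated Lgr5-positive cells and 6.74 to 7.60 elsewhere, and was lost without any one array (adjusted p up to 0.165). The probe set 1460129_PM_at of Slc6a2 differed by 1.71 (adjusted p = 0.0228 over all probe sets), while the other 3 probe sets of Slc6a2 gave 1.05, 0.55 and 0.39 and did not pass.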

How the results depend on the processing

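With 1 array left out the count of transporter genes past the threshold ranged from 4 to 11 for the drug in Lgr5-positive cells, from 1 to 3 in Lgr5-negative cells, from 4 to 12 between the untreated populations, from 0 to 2 between the treated populations, and from 0 to 1 for the difference between the drug effects. With no filter the treated populations gave 1. With only the 4 arrays compared the drug in Lgr5-negative cells gave 1 and the treated populations 0. For the difference between the drug effects 1 gene passed with a filter at the median, with the mean of probe sets, under cyclic loess and with an intensity trend (Slc6a20a each time), and 1 with every probe set tested (Slc6a2). The replicate block, with the mouse as a block, gave 2 for that difference, and the random mouse block gave 2. For the drug effects, where the numbers do not pair mice, a block on the number brought in Slc38a6 and ended Slc7a1 in Lgr5-negative cells (adjusted p = 0.0464 and 0.0713), and ended Slc7a6 in Lgr5-positive cells (adjusted p = 0.0528). Settings with 1 array left out or only the 4 arrays compared use fewer arrays. The number of all genes that passed changed in them as well, and the cause of these changes was not tested. Single transporter genes kept their side of the threshold in 983 values, lost it in 86 and gained it in 29. Of the values that passed in the main fit or the alternative, 0 reversed direction. Values that passed in neither count among the 983 whatever their direction, so some of these may have changed sign.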
